A study of Mus musculus with 10 samples.

Results

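The step from 2 to 4 h of interferon-beta (IFN-β) treatment was followed in naive mouse embryonic fibroblasts (MEFs), primary cells of connective tissue taken from embryos, by setting the 4 h RNA-seq library against the 2 h library. The comparison asks which genes rise late and which early genes are already falling. These are 2 of the 10 libraries of the series. Of 12168 genes with at least 1 RPKM (reads per kilobase of transcript, scaled to depth) in at least 2 libraries, 312 were at least 2-fold apart on the log2(RPKM + 1) scale. The naive arm was sampled at 0, 1, 2, 4 and 6 h, as was an arm of MEFs that had been pretreated, and IFN-β is stated at 100 U per ml. The cells of both arms came from C57BL/6 mice with the genotype H3.3b-HA knock-in, in which a tagged H3.3-HA cDNA stands in place of H3f3b, which encodes histone variant H3.3. All groups carry the tagged allele, and cells without it were not analysed here. How long, at what dose and with what washout the cells were pretreated is not stated in the labels used here, and hours are taken to run from the addition of IFN-β. Each arm and time had 1 library, so a difference of 4 h against 2 h has no replicate check. No library is labelled as untreated at 1 to 6 h, so that the effect of IFN-β and that of time in culture cannot be told apart. In bulk RNA, fewer cells of a type and less RNA per cell cannot be told apart either.

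IFN-β binds a receptor on the cell surface that activates the kinases JAK1 and TYK2. They phosphorylate STAT proteins, and STAT2 and IRF9 are parts of ISGF3, the complex that binds interferon-stimulated response elements (ISREs). STAT dimers bind gamma-activated sites (GAS) and switch on genes such as Irf1, whose protein is itself a transcription factor of antigen presentation genes. Some targets respond within an hour and are shut off by feedback inhibitors such as SOCS1, while others accumulate for many hours.

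The 4 h library held 254.3 M counts (M, mega) and the 2 h library 108.7 M, and the 10 libraries lay between 83.91 and 268.5 M. Genes at 1 RPKM or more numbered 11607 to 11815 per library. The 8 fibroblast markers, among them Col1a1 and Vim, summed to 11196 RPKM at 4 h against 12033 RPKM at 2 h. The 8 macrophage markers summed to 8.83 RPKM at 4 h against 7.28 RPKM at 2 h, nearly all from Cd14 and Cd68. Of the defining macrophage genes, Emr1 had no count in any library and Csf1r stood at 0.088 RPKM at 4 h and at 0.088 RPKM at 2 h. Lymphocyte markers summed to 0.091 RPKM at 4 h against 0.052 RPKM at 2 h, with Cd3e and Cd3g at 0. The skeletal muscle markers stood at 0.548 RPKM at 4 h and 0.243 RPKM at 2 h, with Myod1 at 0. The 6 endothelial markers summed to 5.83 RPKM at 4 h against 3.18 RPKM at 2 h, and the 6 epithelial markers to 3.89 RPKM at 4 h against 1.43 RPKM at 2 h, mostly Cdh1. Neural markers summed to 4.66 RPKM at 4 h against 6.44 RPKM at 2 h. The part of these cells in the results was not tested. Levels of H3f3b transcripts were 11.9 RPKM at 4 h and 13.2 RPKM at 2 h.

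In what follows, a rise or a fall is a difference of at least 2-fold between 4 h and 2 h, with no test behind it. Rises numbered 211, or 1.73% of the genes tested, and falls 101, or 0.83%. The median difference of all genes was -0.06 on the log2 scale. How many of all genes were higher or lower by any amount was not counted. Such counts of list members below therefore have no share of all genes beside them. The genes nearest to the limit were Cxcl11, a chemokine that was just inside at 1.001, and Nupr1, a stress-induced nuclear protein that was just outside at 0.998. Among falls, Kif15, a spindle motor, was just inside at -1.001 and Txnrd1, a thioredoxin reductase, just outside at -0.999. The 211 rises were split by what the same gene had done before 2 h. For 99 late risers, neither 1 h nor 2 h was 2-fold above 0 h on the log2(RPKM + 1) scale. The other 112 had already risen at 1 or 2 h on that scale and are called continuing risers. Because 1 RPKM is added, a gene that starts low can pass 2-fold in RPKM by 2 h and still count as late. Sp110 went from 0.006 to 0.82 RPKM by 2 h and was a late riser, while its neighbours Sp100 and Sp140 were continuing risers. For low genes the split thus depends on level as well as on time. Of the 101 falls, 13 were early genes that had risen at 1 or 2 h, and 88 were not. The classes use the 0, 1, 2 and 4 h naive libraries, so that the 6 h library and the pretreated arm are the values they did not use.

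**Figure D1:**
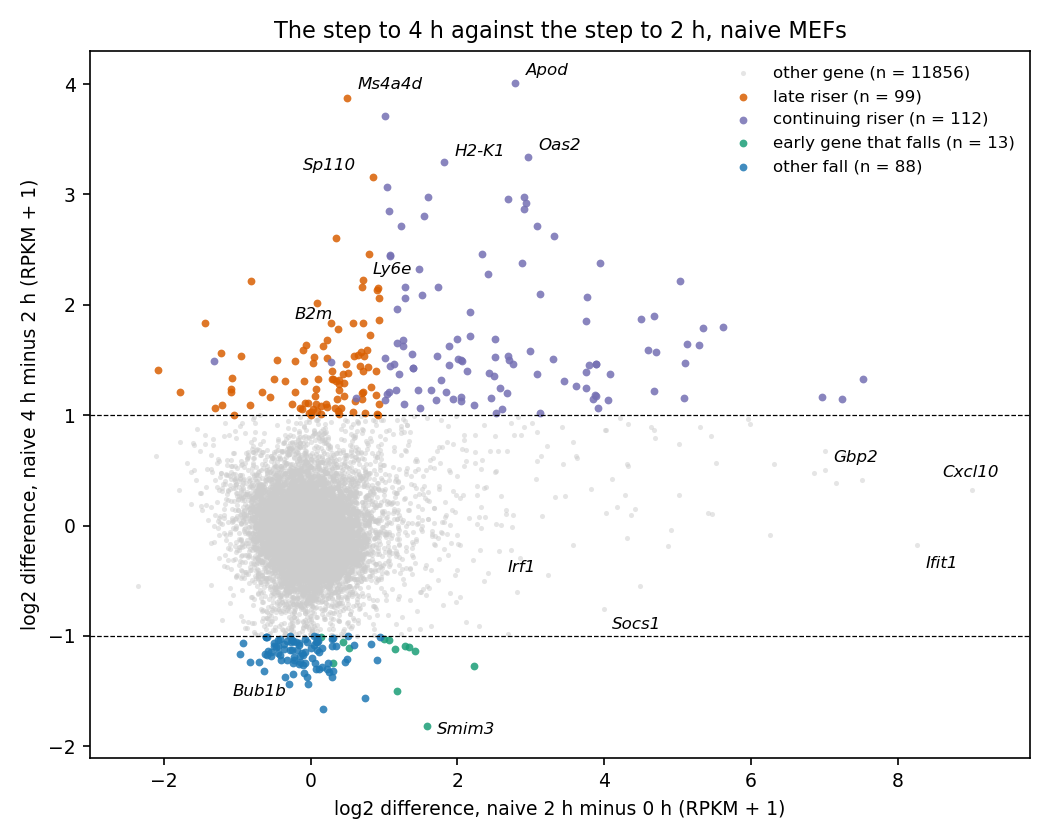
Each point is 1 of 12168 genes; the x axis gives the log2 difference of naive 2 h minus 0 h and the y axis that of naive 4 h minus 2 h, both on RPKM + 1, with dashed lines at a 2-fold step. Late risers lie above the upper line at less than a 2-fold step up on the x axis, 29 of the 99 left of 0, continuing risers mostly lie to their right, with Nr4a1 left of 0 as the exception, and strongly induced genes such as Ifit1 and Cxcl10 lie between the lines.

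Late risers were a mixed class. Interferon genes stood at its head. Ms4a4d, a membrane protein of the MS4A family, had 1.83, 1.41, 3.01, 57.9 and 53.6 RPKM at 0, 1, 2, 4 and 6 h, a log2 difference of 3.88 between 4 and 2 h. The ratio of its RPKM was 19.3 (95% interval from 17.6 to 21.1, exact binomial on the counts, counting error only). Up to 2 h it stayed at 3.01 RPKM or below, and the 4 h level was largely held at 6 h. Sp110, a nuclear body protein, had 0.006, 0.132, 0.82, 15.3 and 19.3 RPKM over the same times, and the uncharacterised Gm7609 had 0, 0.07, 0.269, 6.71 and 6.83 RPKM. Ccl5, a chemokine for T cells and monocytes, had 6.92, 9.72, 12.7, 74.7 and 76.7 RPKM. These courses share a low level up to 2 h and a plateau from 4 h. Ly6e, a lipid-anchored surface protein that restricts some viruses, had 193, 228, 316, 1483 and 1439 RPKM and a log2 difference of 2.22. B2m, the invariant light chain of MHC class I, had 989.97, 1352, 1474, 5250.1 and 6179 RPKM, with a log2 difference of 1.83. It was the late riser with the highest level, and by RPKM most of the gain to 6 h lay between 2 and 4 h.

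Further late risers with roles in immunity were the complement gene C4a, the vanin Vnn1, the MHC class II chaperone Cd74 and several H2-Q genes. Vnn1 stood at 11.6 RPKM at 4 h against 1.84 RPKM at 2 h, and Cd74 at 11.5 RPKM at 4 h and 2.50 RPKM at 2 h. Ly6a, the stem cell antigen Sca-1, stood at 1342 RPKM at 4 h and 463 RPKM at 2 h. The paralogs Ly6c1 and Ly6c2, which may share reads, had log2 differences of 1.63 and 1.59. Further late risers, named after their values were seen, were the progranulin gene Grn (446 RPKM at 4 h, 160.2 RPKM at 2 h) and the cholesterol carrier Npc2 (224 RPKM at 4 h, 100.3 RPKM at 2 h). Of genes for secreted growth regulators, Igfbp5 stood at 142 RPKM at 4 h against 56.8 RPKM at 2 h, and pleiotrophin (Ptn) at 206 RPKM at 4 h and 101 RPKM at 2 h. Of the 99 late risers, 65 had at least 5 RPKM at 4 or 2 h.

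A part of the late risers had dipped before they rose. In 29 of the 99 the 2 h level was below the 0 h level, and 21 were at 4 h still less than 2-fold above 0 h. Egr1, a growth factor response gene, had 111, 108, 25.7, 70.02 and 48.9 RPKM from 0 to 6 h, so that its 4 h level lay below its start. Dusp1, a phosphatase of MAP kinases, had 36.5, 10.2, 15.3, 33.8 and 29.6 RPKM, with its lowest level at 1 h. Ddit3, the stress factor CHOP, had 59.9, 47.9, 25.04, 75.98 and 128 RPKM, and Chac1, which degrades glutathione, had 10.1, 8.64, 4.27, 12.3 and 12.1 RPKM. Adm, the peptide hormone adrenomedullin, had 24.2, 18.3, 8.25, 32.04 and 41.98 RPKM, and Osr2, a developmental transcription factor, had 25.4, 20.3, 11.5, 28.6 and 26.7 RPKM. These genes regained or passed their 0 h level at 4 h, except Egr1 and Dusp1, and are late risers only by the step between 2 and 4 h.

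Continuing risers held the largest step of all genes tested with at least 5 RPKM at 4 or 2 h. Apod, a secreted lipid carrier, had 5.65, 14.2, 44.98, 740.2 and 635 RPKM at 0, 1, 2, 4 and 6 h, and its log2 difference was 4.01. Plac8 had 1.10, 0.9, 3.26, 54.96 and 40.5 RPKM and a log2 difference of 3.71. Ifi27l2a, a small interferon-induced mitochondrial protein, had 13.1, 15.4, 28.01, 242 and 166 RPKM and a log2 difference of 3.07. Mpeg1, a pore-forming protein that macrophages are known for, had 0.015, 1.04, 6.63, 59.2 and 85.1 RPKM. It was near 0 before treatment. Of the 8 macrophage markers, Emr1 had no counts and Ptprc stood at 0.002 RPKM at 4 h and 0 at 2 h, while Cd14 stood at 4.82 RPKM at 4 h against 3.79 RPKM at 2 h and Cd68 at 3.44 RPKM at 4 h against 3.003 RPKM at 2 h. Their part in the level of Mpeg1 was not tested. Il18bp, the secreted inhibitor of interleukin 18, stood at 23.9 RPKM at 4 h and 2.78 RPKM at 2 h. Lgals3bp, a secreted glycoprotein that binds galectins, stood at 779 RPKM at 4 h and 155 RPKM at 2 h. All but 1 of the 112 continuing risers were at least 2-fold above 0 h at 4 h, beside 5.71% of all genes. The rule of the class nearly fixes that count, and nothing is read from it. The exception was Nr4a1, an immediate early nuclear receptor, which peaked at 1 h and had 11.2, 29.7, 3.88, 12.7 and 13.4 RPKM from 0 to 6 h.

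Antigen presentation by MHC class I was the list with the highest median difference. Of its 29 members tested, 23 rose and none fell, beside rises in 1.73% of all genes, and the median was 1.498 on the log2 scale, against -0.06 for all genes. Among heavy chains, which bind the peptide, H2-K1 had 9.94, 13.3, 37.7, 379 and 288 RPKM from 0 to 6 h, with a log2 difference of 3.29. H2-D1 stood at 348 RPKM at 4 h against 77.2 RPKM at 2 h, and H2-T23 at 102 RPKM at 4 h and 20.2 RPKM at 2 h. The entries of H2-D1 and H2-L, of H2-Q6 and H2-Q8, of H2-Q7 and H2-Q9 and of H2-T9 and H2-T22 overlap at nearly the same coordinates. H2-Q6 and H2-Q8 had 5806 and 5808 counts at 4 h in naive MEFs. The same reads may thus have been counted under both entries of a pair, which are not separate observations. The subunits of the immunoproteasome, which cuts peptides for these molecules, rose too. Psmb8 stood at 106 RPKM at 4 h against 34.3 RPKM at 2 h, and Psmb9 at 87.4 RPKM at 4 h and 32.8 RPKM at 2 h. The log2 difference was 1.43 for tapasin (Tapbp), the peptide editor, 1.14 for the trimming peptidase Erap1 and 1.14 for Nlrc5, the transactivator of this pathway. The transporter genes stayed below 2-fold, with 0.76 for Tap1 and 0.59 for Tap2.

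How far a gene had come at 2 h can be given as the part of its 0 to 4 h rise, in RPKM, that was already present. Over the members at least 2-fold above 0 h at 4 h, the median was 22.7% at 2 h for the MHC class I list, and 51.2% for all such genes. It was 7.53% for H2-K1 and 11.4% for B2m, against 56.9% for Tap1 and 43.5% for Nlrc5. Tap1 and Nlrc5 were thus nearer to their 4 h level at 2 h than H2-K1 and B2m were. Complement genes had the lowest median of the lists with at least 5 such members, 16.7%. The list of interferon receptor, JAK, STAT and IRF genes had the highest, 73.2%. In between stood the antiviral effectors at 39.7%, the nucleic acid sensors at 46.1%, the interferon-inducible GTPases at 52.0% and the ISG15 pathway with its ligases at 52.8%. These shares rest on the 2 and 4 h libraries themselves and are a description.

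**Figure D2:**
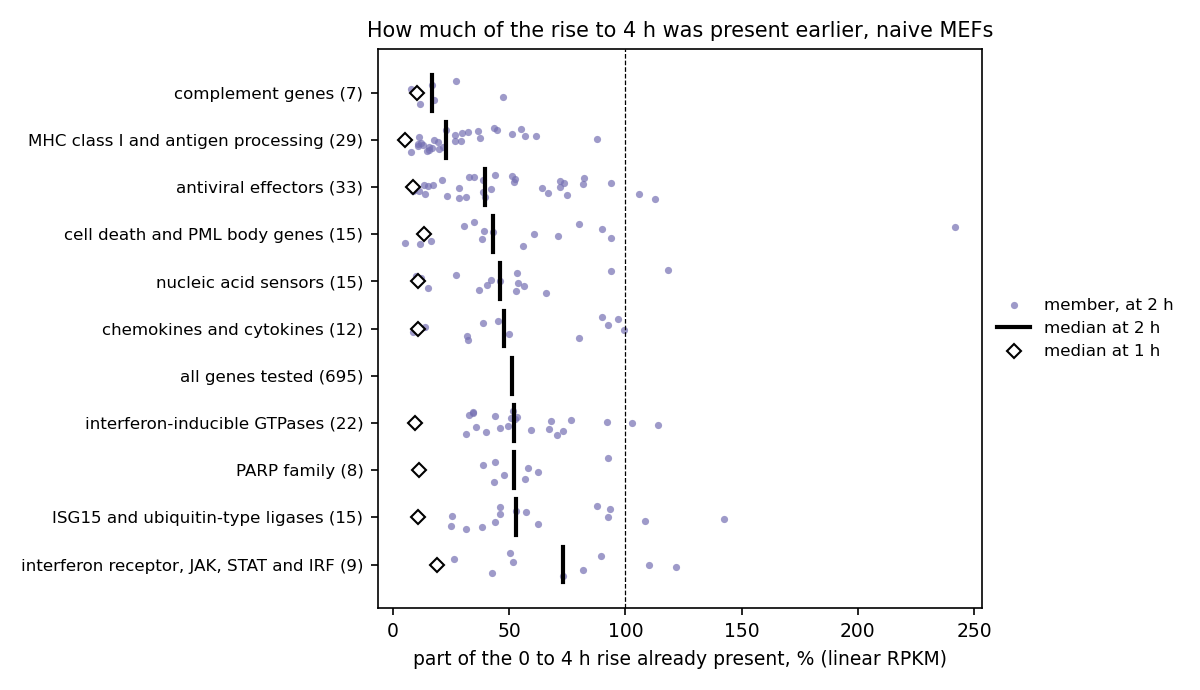
Each point is a gene at least 2-fold above 0 h at 4 h in naive MEFs, grouped by list with the number of such members in brackets; the x axis gives how much of its 0 to 4 h gain in RPKM was present at 2 h, the bar is the list median at 2 h and the diamond that at 1 h. Values over 100% are genes higher at 2 h than at 4 h, and the row of all genes shows its 2 h median alone. Medians at 2 h lie between 16.7% for complement genes and 73.2% for the receptor, JAK, STAT and IRF genes.

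Antiviral effectors were higher at 4 h than at 2 h in 32 of 34 members tested. Of these 34, 15 rose and none fell, with a median of 0.88. The 2',5'-oligoadenylate synthetases, which make the activator of RNase L, led the list. Oas2 had 0.498, 1.72, 10.7, 117 and 113 RPKM from 0 to 6 h and Oas3 had 0.032, 0.373, 2.14, 23.7 and 26.97 RPKM, with log2 differences of 3.34 and 2.98. The paralogs Oas1a and Oas1g had differences of 2.71 and 2.96, and may share reads. Tetherin (Bst2), which holds budding virus at the membrane, stood at 591 RPKM at 4 h and 107 RPKM at 2 h. Isg15, a ubiquitin-like modifier, stood at 195 RPKM at 4 h and 62.04 RPKM at 2 h. Ifit1, which binds foreign RNA caps, had 3.14, 374, 1276, 1132 and 952 RPKM, a difference of -0.17, and its neighbour in the family Ifit2 had 2.59, 19.996, 176, 614 and 809 RPKM, a difference of 1.80. Mx1, a GTPase that traps viral nucleocapsids, had 0.186, 46.96, 215, 287 and 315 RPKM, and viperin (Rsad2) stood at 311 RPKM at 4 h and 199 RPKM at 2 h. Within the Ifit family, Ifit2 rose between 2 and 4 h and Ifit1 did not.

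The GTPase, sensor and ligase lists had similar counts, with rises in 7 of 22, 7 of 20 and 6 of 16 members tested and no falls. Their medians were 0.91, 0.87 and 0.69. Among GTPases that attack vacuoles, Gbp3 stood at 167 RPKM at 4 h and 52.7 RPKM at 2 h, while Gbp2 had 2.41, 73.7, 437, 619 and 810.3 RPKM from 0 to 6 h and a difference of 0.50. Of the sensors, Zbp1, a receptor for Z-form nucleic acids, had 2.35, 10.1, 32.5, 205 and 256 RPKM and a difference of 2.62. The pyrin-only genes Pydc3 and Pydc4, which are near copies of each other, had differences of 2.87 and 2.81. STING (Tmem173) and cGAS (Mb21d1), the main pathway that senses cytosolic DNA, did not rise, with -0.67 and -0.63. In the ISG15 pathway the activating enzyme Uba7 and the conjugating enzyme Ube2l6 rose, with 1.31 and 1.69, and the deconjugating enzyme Usp18 had 0.68. Nuclear body genes of the Sp family rose as a group of neighbours: Sp110, Sp140 and Sp100 had differences of 3.16, 1.96 and 2.92. In the PARP list 2 of 11 members rose, Parp11 and Parp12.

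Of complement genes, 6 of 10 tested rose, with a median of 1.06. C4b, a component of the classical cascade, had 1.77, 2.33, 4.80, 40.9 and 27.1 RPKM from 0 to 6 h, a difference of 2.85, though C4a is nearly the same gene. Factor B (Cfb), of the alternative pathway, stood at 38.2 RPKM at 4 h and 7.74 RPKM at 2 h. Serping1, the C1 inhibitor, stood at 90.04 RPKM at 4 h and 32.9 RPKM at 2 h. C3 stayed below 2-fold, with 0.56. In the list of chemokines and cytokines 4 of 20 rose, Ccl5, Ccl8, Cxcl9 and Cxcl11, of which the last 3 stayed under 10 RPKM at 4 h. Cxcl10, which attracts activated T cells, had 0.631, 126, 840.1, 1051 and 1101 RPKM from 0 to 6 h and a difference of 0.32. Ccl2 stood at 724 RPKM at 4 h and 409 RPKM at 2 h. The checkpoint list had 1 rise in 7 members, galectin-9 (Lgals9), while Cd274, which encodes PD-L1, had -0.18. The list of cell death and PML body genes had 4 rises in 20 members, the 3 Sp genes and Xaf1.

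**Figure D3:**
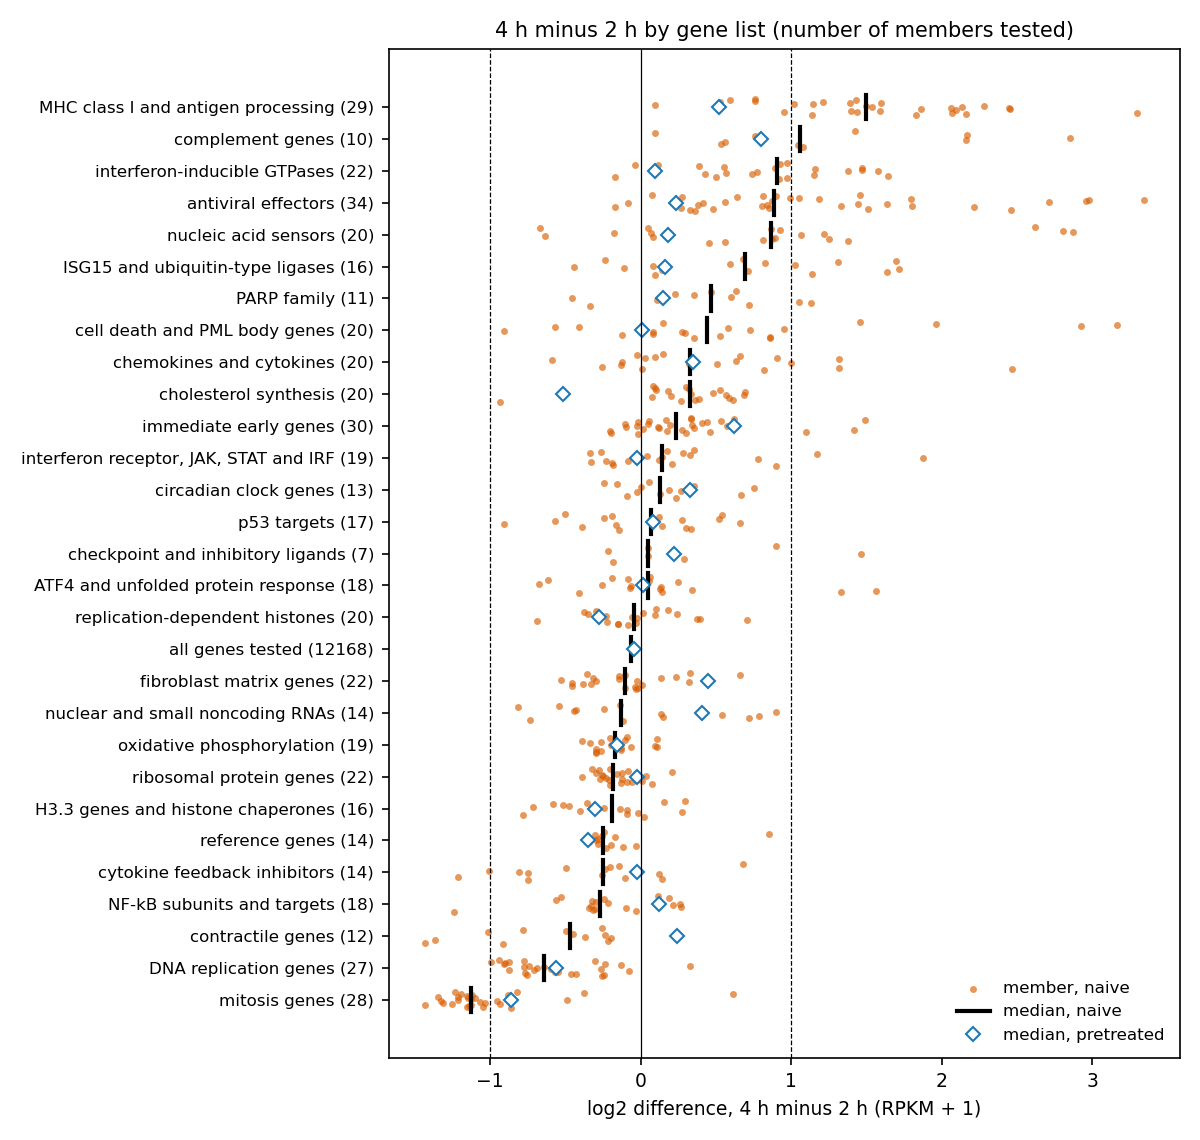
Each orange point is a member of a gene list, placed by its naive log2 difference of 4 h minus 2 h on RPKM + 1; black bars are list medians in naive MEFs and blue diamonds the list medians in pretreated MEFs, with the number of members tested in brackets. Naive medians run between 1.498 for MHC class I and -1.13 for mitosis genes, beside -0.06 for all genes.

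In the list of receptor, JAK, STAT and IRF genes 2 of 19 rose, beside rises in 1.73% of all genes, and the median was 0.14. Irf7, the IRF that amplifies interferon production, had 2.22, 32.4, 72.2, 267 and 295 RPKM from 0 to 6 h, with a difference of 1.87. Stat2 and Irf9, parts of ISGF3, had 0.28 and 0.14. The receptor chains Ifnar1 and Ifnar2 had -0.18 and 0.21. Irf1 had 18.5, 205, 115, 97.8 and 87.4 RPKM, so that it peaked at 1 h and was still above its 0 h level at 4 h.

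**Figure D4:**
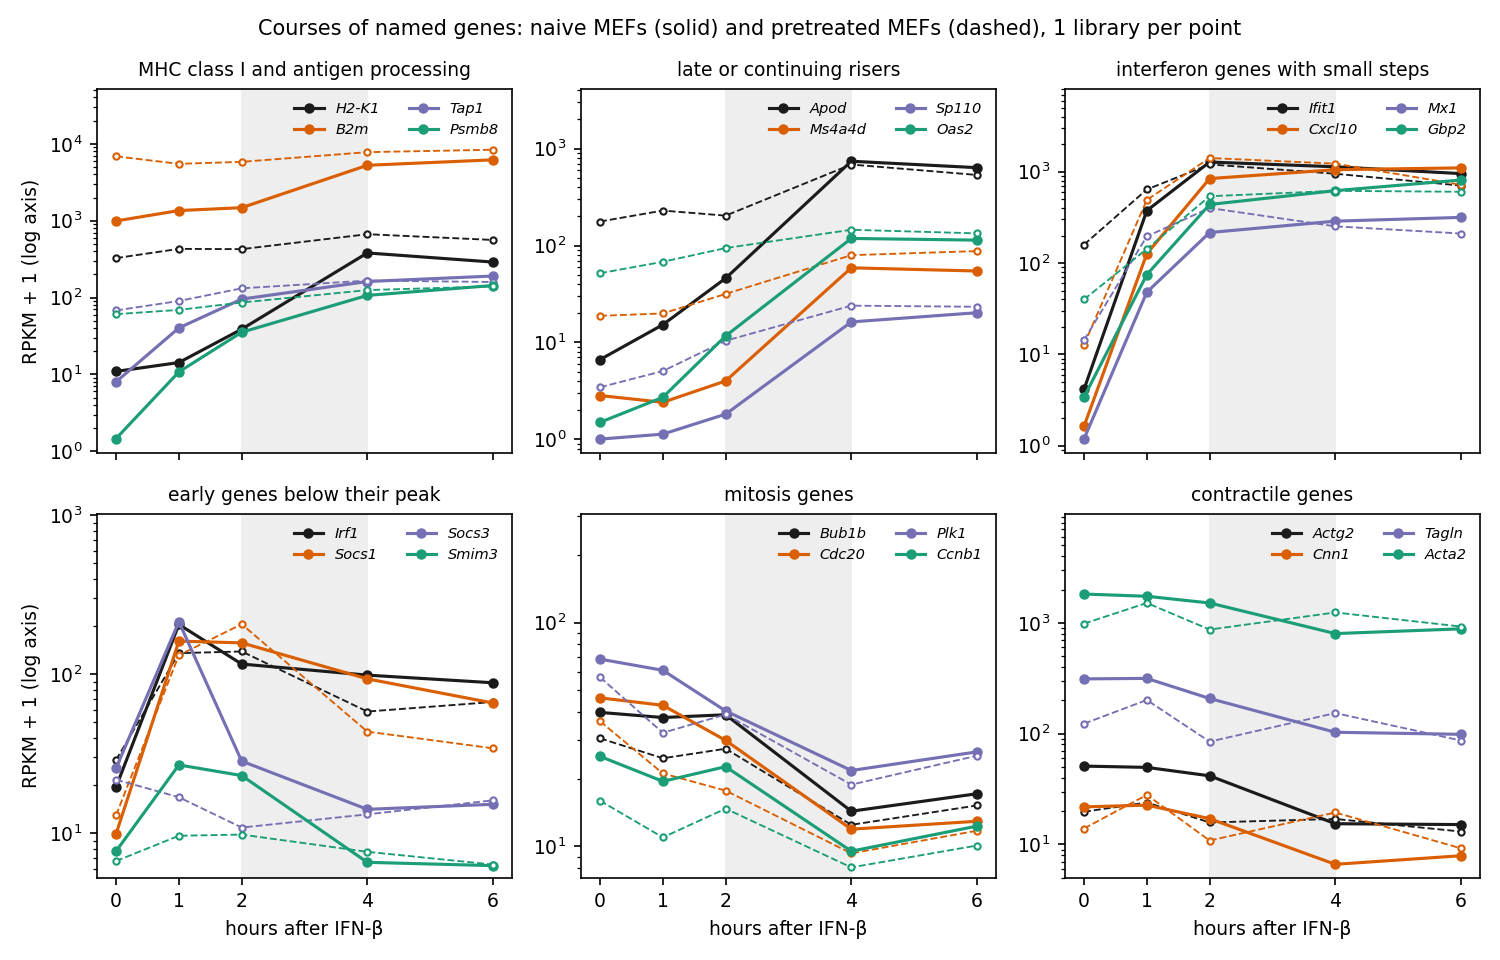
Courses of 24 genes in 6 panels, with RPKM + 1 on a log axis against hours; solid lines are naive MEFs, dashed lines pretreated MEFs, each point is 1 library and the grey band marks the step between 2 and 4 h. H2-K1, Apod and Oas2 climb inside the band in naive MEFs, Ifit1 and Cxcl10 are nearly level there, and the mitosis genes fall.

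Most early genes did not fall between 2 and 4 h. Of 481 genes at least 2-fold above 0 h at 2 h (3.95% of those tested), 109 were at least 2-fold higher again at 4 h, 363 were within 2-fold and 9 were at least 2-fold lower. With the genes that had risen at 1 h alone, 13 early genes fell. Smim3, a small membrane protein, had 6.72, 25.9, 22.1, 5.57 and 5.26 RPKM from 0 to 6 h and the largest fall, -1.81. Rasal2, a GTPase-activating protein for RAS, had 4.72, 4.83, 11.96, 3.58 and 2.76 RPKM, and Tnfaip6, a hyaluronan-binding protein of inflamed tissue, had 0.781, 4.28, 7.33, 2.45 and 1.59 RPKM. Serpina3g, a protease inhibitor, had 45.7, 90.1, 117, 54.2 and 35.7 RPKM. Each of these genes peaked at 1 or 2 h. Smim3 and Rasal2 were below their 0 h level at 4 h, while Tnfaip6 and Serpina3g were still above it. Bcl3, a nuclear partner of NF-kB, had 21.9, 94.4, 27.2, 10.9 and 11.1 RPKM, Cebpd, a transcription factor of the acute phase, had 14.8, 109.8, 21.8, 9.61 and 10.2 RPKM, and Socs3, which blocks STAT3 signalling, had 24.7, 213, 27.4, 13.2 and 14.2 RPKM. In these 3 genes most of the loss had taken place between 1 and 2 h, and the 4 h level lay below that of 0 h. In all, 7 of the 13 were below 0 h at 4 h. The remaining members were Sphk1, Pqlc1, Il20ra, Il18rap, Cyp26b1 and Mir5116, and the last is a microRNA entry that may hold reads of a longer transcript.

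The larger loss of early transcripts came sooner. Of 536 genes up at 1 or 2 h, 46 were at 4 h at least 2-fold below the higher of those 2 values. For 33 of these the 4 h level was not 2-fold below the 2 h level. Nr4a1, which rose between 2 and 4 h, was among these 33. Among feedback inhibitors, 2 of 14 tested fell, Socs3 and the phosphatase Ptpn1, beside falls in 0.83% of all genes. The median of this list was -0.25, and that of the list of reference genes was also -0.25. The difference of Socs3, -1.01, was -0.94 with TMM library sizes and -0.93 with DESeq2 size factors, so that Socs3 was then within 2-fold. Ptpn1 had 21.7, 40.9, 41.3, 17.2 and 16.5 RPKM from 0 to 6 h, without a 2-fold early rise. Socs1, which inhibits JAK kinases, had 8.90, 161, 157, 92.6 and 64.96 RPKM, a difference of -0.75. Of NF-kB subunits and targets 1 of 18 fell, Bcl3, with a median of -0.27, near that of the reference genes too. The list of immediate early genes had 3 rises in 30 members, Nr4a1, Egr1 and Dusp1, and a median of 0.23.

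Mitosis genes made up the largest set of falls. Of the 28 listed, 20 fell, 1 was higher and 27 were lower, and the median was -1.13. Bub1b, a spindle checkpoint kinase, had 38.7, 36.7, 37.7, 13.4 and 16.2 RPKM from 0 to 6 h, with a difference of -1.43. Cdc20, which activates the anaphase-promoting complex, had 45.1, 41.7, 28.8, 10.9 and 11.96 RPKM, and Cenpa, the histone H3 variant of centromeres, had 46.96, 45.8, 55.9, 21.7 and 21.9 RPKM. Cyclin B1 (Ccnb1) stood at 8.53 RPKM at 4 h against 21.7 RPKM at 2 h, and Mki67, the proliferation marker Ki-67, at 21.96 RPKM at 4 h and 52.4 RPKM at 2 h. Pttg1, the separase inhibitor securin, was the exception, with 68.4 RPKM at 4 h and 44.3 RPKM at 2 h. For Bub1b and Cenpa the 0, 1 and 2 h levels were close together and the loss was between 2 and 4 h, while Cdc20 was lower at 2 h than at 0 h.

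DNA replication genes were lower in 26 of 27 members, beside 13 of 14 for reference genes, but no replication gene passed 2-fold. Their median was -0.64, and the lowest was Rrm1, the large subunit of ribonucleotide reductase, with -0.997. The MCM helicase genes of the list ranged from -0.77 for Mcm5 to 0.33 for Mcm6. Replication-dependent histone genes had a median of -0.04 and no member past 2-fold, and their transcripts are known to lack a poly(A) tail. The H3.3 genes and histone chaperones had a median of -0.19, with -0.25 for Hira and 0.27 for Daxx, chaperones of H3.3, and no member past 2-fold.

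Contractile genes were lower in all 12 members tested, and 3 of them fell. Actg2, smooth muscle gamma-actin, had 49.96, 48.6, 40.6, 14.4 and 14.1 RPKM from 0 to 6 h, calponin (Cnn1) had 20.8, 21.6, 16.1, 5.61 and 6.90 RPKM and transgelin (Tagln) had 311, 314, 207, 102 and 97.6 RPKM. With TMM library sizes the difference of Tagln was -0.94 and with DESeq2 size factors -0.93, within 2-fold. Acta2, smooth muscle alpha-actin, stood at 799.6 RPKM at 4 h and 1512 RPKM at 2 h. Other falls outside these lists included the platelet basic protein gene Ppbp (6.08 RPKM at 4 h, 21.4 RPKM at 2 h), the fibrillin Fbn2 (20.6 RPKM at 4 h, 54.99 RPKM at 2 h), the activin antagonist Fst (1.40 RPKM at 4 h, 5.21 RPKM at 2 h) and the interleukin receptor Il1r1 (10.1 RPKM at 4 h, 24.7 RPKM at 2 h). Of the 88 falls without an early rise, 70 were at 4 h at least 2-fold below 0 h, beside 3.19% of all genes. The rule of the class uses the same libraries and favours that outcome, so nothing is read from the count.

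Several lists had no member past 2-fold. Fibroblast matrix genes had a median of -0.10, with Col1a1 at 3707 RPKM at 4 h and 3990.2 RPKM at 2 h. Ribosomal protein genes had a median of -0.18, genes of oxidative phosphorylation -0.17, reference genes -0.25, p53 targets 0.07, clock genes 0.13 and the nuclear and small noncoding RNAs -0.13. Ribosomal protein genes were lower in 18 of 22 members and genes of oxidative phosphorylation in 16 of 19, while clock genes were higher in 9 of 13. Cholesterol synthesis genes were higher in 19 of 20 members with a median of 0.33, and the exception was Ch25h, the enzyme for 25-hydroxycholesterol, with -0.94. Unlike these lists, that of ATF4 and unfolded protein response genes had members past 2-fold, and 2 of 18 rose, Ddit3 and Chac1, with a median of 0.05.

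At 6 h all 312 genes lay within 2-fold of their 4 h level. Late risers were higher at 6 h than at 4 h in 65 of 99 cases and continuing risers in 93 of 112, with median log2 differences of 0.11 and 0.28. Of the 88 falls without an early rise, 75 stood higher at 6 h than at 4 h, with a median of 0.18, and of the 13 early genes 6 did. The 4 h library takes part in both steps, so that an error in it would move them in opposite directions. The same counts of 6 h against 4 h were not made over all genes tested, so nothing is read from those of the classes.

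The pretreated arm gives the same step in libraries the classes did not use. There 143 genes (1.18%) were at least 2-fold higher at 4 h than at 2 h, and 88 (0.723%) at least 2-fold lower. Of the 99 late risers, 23 also rose in pretreated MEFs and 2 fell, with a median of 0.60. Of the 112 continuing risers, 10 rose and none fell, with a median of 0.53. Of the 88 other falls, 10 fell, and 71 were below 0, with a median of -0.80. Of the 13 early genes none fell, and their median was -0.22. Not all of them had an early rise in pretreated MEFs. Socs3 had 20.7, 15.9 and 9.87 RPKM at 0, 1 and 2 h there, while Tnfaip6 had 0.698, 1.75 and 2.94 RPKM. Across all genes tested the log2 differences of naive and pretreated MEFs had Spearman's rho of 0.40 and Pearson's r of 0.42, a description over genes, which are not independent.

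Named risers show how far the arms lay apart. Ms4a4d had log2 differences of 3.88 in naive and 1.33 in pretreated MEFs, Apod 4.01 and 1.75, and Ccl5 2.46 and 1.76. H2-K1 had 3.29 in naive and 0.65 in pretreated MEFs, Oas2 3.34 and 0.63, and B2m 1.83 and 0.42. The step of these 6 genes was smaller in pretreated MEFs. In other risers it was larger there. Nr4a1 had 1.49 in naive and 3.49 in pretreated MEFs, Ly6i 1.84 and 3.33, and Dusp1 1.09 and 1.62. Of the 29 MHC class I members, 3 rose in pretreated MEFs with a median of 0.52, and of the 34 antiviral effectors none did, with a median of 0.23. Of the 28 mitosis genes, 6 fell in pretreated MEFs, with a median of -0.86. Contractile genes had a median of -0.47 in naive and 0.24 in pretreated MEFs, matrix genes -0.10 and 0.45, and cholesterol synthesis genes 0.33 and -0.52. The difference between the arms was not tested, for lack of replicates.

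Starting levels also differed between the arms. At 0 h, 311 genes (2.56%) were at least 2-fold higher in pretreated than in naive MEFs. Among continuing risers this held for 95 of 112, or 84.8%, and among late risers for 35 of 99, or 35.4%. None of the 101 falls was among them. The naive 0 h library also enters the rule of the classes, so these shares are a description. H2-K1 had 325, 428, 425, 665 and 559.8 RPKM from 0 to 6 h in pretreated MEFs and 9.94, 13.3, 37.7, 379 and 288 RPKM in naive MEFs, and Apod had 176, 229, 203, 685 and 534 RPKM in pretreated and 5.65, 14.2, 44.98, 740.2 and 635 RPKM in naive MEFs. The pretreated level at 0 h was thus near the naive level at 4 h for H2-K1, but below it for Apod.

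The pretreated 1 and 4 h libraries stood apart from the pretreated 0, 2 and 6 h libraries in H19, Igfbp2 and Gpnmb, which touches every pretreated value of 4 h against 2 h. Whether these genes respond to IFN-β was not tested. H19, an imprinted noncoding RNA, had 9.39, 43.7, 9.19, 44.4 and 9.78 RPKM from 0 to 6 h in pretreated MEFs and 109.7, 123, 89.5, 53.4 and 55.2 RPKM in naive MEFs. Igfbp2, a binding protein of insulin-like growth factors, had 5.34, 21.2, 3.81, 21.4 and 5.25 RPKM in pretreated MEFs. The part of this pattern in the pretreated steps was not tested. Gpnmb, a lysosomal glycoprotein, showed it too, with 33.4, 8.25, 29.9, 7.51 and 28.9 RPKM in pretreated and 7.04, 4.42, 3.59, 20.3 and 23.7 RPKM in naive MEFs.

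**Figure D5:**
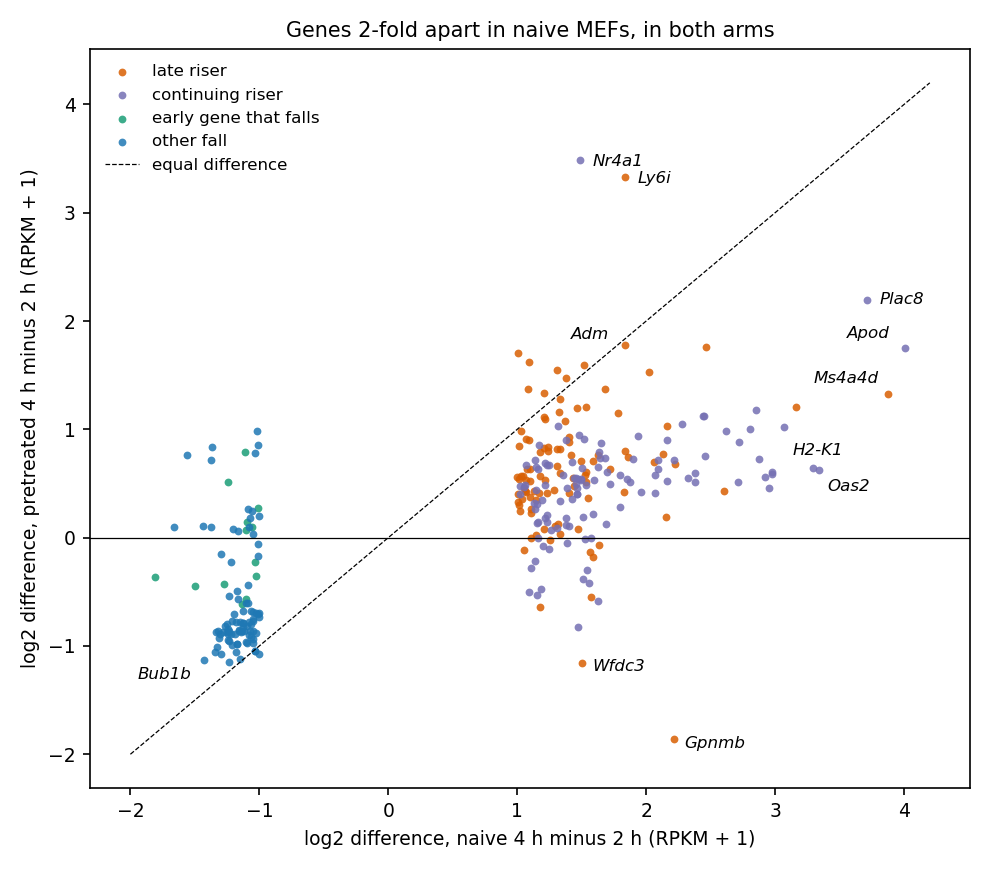
The 312 genes at least 2-fold apart in naive MEFs, with the naive log2 difference of 4 h minus 2 h on the x axis and the pretreated one on the y axis, both on RPKM + 1, coloured by class; the dashed line marks equal differences. Most continuing risers lie below the line and above 0, and Gpnmb and Wfdc3 are the 2 genes past 2-fold in opposite directions.

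The only test of 4 h against 2 h with residual degrees of freedom takes both arms together, with time and arm as terms over all 10 libraries. By edgeR's quasi-likelihood test with Benjamini-Hochberg adjustment, 58 genes (0.477%) were higher at 4 h and 103 (0.846%) lower. The smallest adjusted p was 0.0227, and 2359 genes had an unadjusted p under 0.05. The naive libraries are part of this test, so its calls among the 312 genes are a description. It called 13 of the 99 late risers, none of the 112 continuing risers, 43 of the 88 other falls and none of the 13 early genes. With 4 residual degrees of freedom and arms averaged, a gene that steps in 1 arm counts partly as error. Leaving out any 1 of the 4 libraries at 2 or 4 h ended all calls of this test, with 1460 to 1655 genes still at an unadjusted p under 0.05.

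Of the 103 genes called lower, 18 were among the 28 listed mitotic genes and 2 among the 27 replication genes, Rrm1 and Prim1. Bub1b fell by 1.28 on the log2 scale over both arms (SE 0.12, edgeR adjusted p = 0.0227), and Cenpa fell by 1.15 (SE 0.11, edgeR adjusted p = 0.0227). Among called rises were genes that had dipped at 2 h in naive MEFs. Adm rose by 1.95 (SE 0.17, edgeR adjusted p = 0.0227), Chac1 by 1.52 (SE 0.12, edgeR adjusted p = 0.0227) and Dusp1 by 1.48 (SE 0.20, edgeR adjusted p = 0.0355). Of larger fitted changes, Ifi27l2b, a paralog of Ifi27l2a that may share its reads, rose by 2.93 and Klf15, a glucocorticoid-responsive factor, by 2.43, both at levels under 5 RPKM in naive MEFs. H2-K1, Oas2 and Ms4a4d were not called, with edgeR adjusted p of 0.305, 0.397 and 0.149.

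Some risers lay near each other in the genome. In mm10, 89 of the 211 had another riser within 100 kb of their start, and there were 12 groups of at least 3. Of the 101 falls, a smaller set, 6 had another fall that near, and how often sets of these sizes have such neighbours was not tested. On chromosome 17, all 11 entries tested from H2-D1 to H2-Q10 (35263094 to 35474563) rose, as did all 9 tested from H2-T23 to Gm8909 (36029977 to 36168537). The overlapping pairs of MHC class I entries described earlier lie in these groups, and each entry of a pair was counted. Separate loci are therefore fewer than 11 and 9, and the 89 risers with a neighbour include these pairs too. In another 3 groups of that chromosome only part of the genes tested rose, 3 of 9 between 33919478 and 34000333 with H2-K1 and Tapbp, 4 of 6 between 34182099 and 34287771 with Psmb8 and Psmb9, and 3 of 7 between 34728381 and 34862514 with C4b, C4a and Cfb. On chromosome 15, between 74955106 and 75111949, all 5 tested rose, Ly6e, Ly6i, Ly6a, Ly6c1 and Ly6c2. On chromosome 14, between 59244441 and 59393512, Gm6904 and 4 Phf11 genes rose. On chromosome 1, 6 of 6 genes between 173521311 and 173766919 rose, among them Pydc3, Pydc4 and Ifi204, and the 3 Sp genes lay between 85576899 and 85709448. On chromosome 19, Ifit2, Ifit3, Gm14446 and I830012O16Rik lay between 34550694 and 34613401. Most of these are families of similar genes, for which shared reads can raise neighbours together, and this was not tested.

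The 250 bases upstream of the start were read from RefSeq promoters of GRCm38.p6, the assembly whose coordinates mm10 uses, for 9523 of the genes tested, of which 8778 had a start within 100 bases of that in the authors' table. Letters were searched on both strands, matches of different motifs may overlap, and a match is not a binding site by itself. Promoters of Oas3 and B2m are shown for the ISRE, and those of Tnfaip6 and Socs3 for the GAS. Those of Cdc20 and Ckap2, a spindle protein, are shown for the CCAAT box and the cell cycle homology region (CHR). The CHR is a site of the DREAM and MuvB complexes. All were picked from genes whose window holds the letters, so they do not show how common a motif is in a class. Sequences run 5′ to 3′ on the gene's strand, and capitals mark the matched letters on either strand.
Oas3 (chr5:120777660-120777909, minus strand): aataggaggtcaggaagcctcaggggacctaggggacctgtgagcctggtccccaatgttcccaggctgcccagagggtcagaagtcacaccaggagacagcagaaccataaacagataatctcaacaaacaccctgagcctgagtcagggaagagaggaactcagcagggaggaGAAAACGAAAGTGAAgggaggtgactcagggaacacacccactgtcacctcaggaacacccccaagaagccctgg
B2m (chr2:122147437-122147686, plus strand): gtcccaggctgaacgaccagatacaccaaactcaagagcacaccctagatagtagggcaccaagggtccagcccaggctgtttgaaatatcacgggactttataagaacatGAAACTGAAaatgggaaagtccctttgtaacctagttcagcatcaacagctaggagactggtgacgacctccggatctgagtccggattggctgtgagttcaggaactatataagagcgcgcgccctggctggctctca
Tnfaip6 (chr2:52037863-52038112, plus strand): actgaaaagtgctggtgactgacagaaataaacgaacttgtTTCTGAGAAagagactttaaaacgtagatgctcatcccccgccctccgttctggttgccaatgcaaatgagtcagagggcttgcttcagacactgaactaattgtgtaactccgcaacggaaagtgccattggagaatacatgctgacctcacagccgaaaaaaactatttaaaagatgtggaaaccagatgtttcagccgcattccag
Socs3 (chr11:117969367-117969616, minus strand): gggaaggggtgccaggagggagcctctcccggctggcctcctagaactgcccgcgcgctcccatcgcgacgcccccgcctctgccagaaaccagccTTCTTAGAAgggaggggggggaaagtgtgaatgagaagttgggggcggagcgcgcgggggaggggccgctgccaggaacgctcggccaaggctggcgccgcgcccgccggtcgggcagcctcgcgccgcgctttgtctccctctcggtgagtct
Cdc20 (chr4:118437344-118437593, minus strand): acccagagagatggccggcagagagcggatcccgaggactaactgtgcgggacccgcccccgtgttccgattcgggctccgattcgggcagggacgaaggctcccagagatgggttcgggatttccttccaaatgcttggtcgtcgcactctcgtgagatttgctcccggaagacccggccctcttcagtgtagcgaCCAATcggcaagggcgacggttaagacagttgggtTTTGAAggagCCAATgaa
Ckap2 (chr8:22185820-22186069, minus strand): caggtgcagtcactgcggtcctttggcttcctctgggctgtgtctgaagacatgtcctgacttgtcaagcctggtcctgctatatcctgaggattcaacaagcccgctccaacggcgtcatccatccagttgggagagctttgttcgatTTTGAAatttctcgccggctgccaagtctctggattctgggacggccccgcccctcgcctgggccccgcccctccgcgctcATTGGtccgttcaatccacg

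The ISRE was searched as GAAANNGAA. It was present in 30 of 80 continuing risers with a promoter (37.5%) and in 5 of 63 late risers (7.94%), beside 6.17% of all genes tested and 7.13% of the 32851 promoters of the table. The late risers with such letters included B2m and Gm7030, an MHC class I gene of the H2-T region. For low genes the split between late and continuing risers also depends on level, and the part of level in these shares was not tested. The GAS, searched as TTCNNNGAA, was present in 3 of 9 early genes that fall (33.3%), 7 of 80 continuing risers (8.75%) and 5 of 63 late risers (7.94%), beside 5.88% of all genes tested and 7.02% of the table. The NF-kB site stood in 17.5% of continuing risers, 14.3% of late risers and 9.02% of all genes tested. The CCAAT letters were found in 43 of 67 other falls (64.2%), beside 36.9% of all genes tested and 33.8% of the table. The CHR, TTTGAA, was found in 23 of these 67 (34.3%), beside 10.7% of all genes tested and 16% of the table. Genes without a promoter in the table, 36 of the late and 32 of the continuing risers, are not part of these shares.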

How the data were processed

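Total RNA was sequenced on 10 libraries, 1 per arm and time, and the table used here gives a tag count and an RPKM per RefSeq transcript of mm10. The counts were deposited unnormalised, per the file headers. The RPKM values were computed by the authors, per the file headers, and their ratio to the counts was constant per library and gene to within 0.000167 on the log2 scale in 7630 genes above 5 RPKM in all libraries. Bowtie, TopHat, Cufflinks 1.2.1 and the build mm10 are listed in the submitters' processing notes. The notes do not say how reads were counted, whether by strand, or what became of reads with several alignments, so reads of overlapping or near-identical genes cannot be separated.

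Of 30646 rows, 15 named no gene and held 0.0158% to 0.0193% of a library's counts. They were left out. The row with the highest mean RPKM was kept for each of 23370 symbols, 4306 of which had several rows, and genes with 1 RPKM or more in 2 or more libraries were tested. Differences were taken on log2(RPKM + 1), which understates the change of low genes, and called at 2-fold without a test. Intervals of a ratio cover counting error only. The test over both arms used edgeR 4.0.16 (quasi-likelihood, two-sided, threshold 0.05) on the counts of all 10 libraries with arm and time. It was tested on simulated counts. Its p-values measure spread between arms and times, which may be technical. DESeq2 1.42.0, limma 3.58.1, other scalings, pseudocounts and filters were alternatives, and figures and shares were made in Python 3.11.15.

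The members and gene lists were chosen with earlier results of these data known. Named genes were the 15 largest rises and falls at 5 RPKM or more, the 10 largest of each class, in each list the 3 largest differences and the 2 highest levels, and the 5 largest rises and falls of the test over both arms. Also named were 14 fixed genes, made up of interferon genes and H3f3b. Other members of a list or class that are named were chosen after their values were seen. Values of some list members are not reported here.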

Additional observations from a re-analysis of the deposited data

Results flagged for a closer look

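In 2 genes the naive and the pretreated arm moved at least 2-fold in opposite directions between 2 and 4 h. Gpnmb had a log2 difference of 2.21 in naive and -1.86 in pretreated MEFs. Wfdc3 had 1.505 in naive and -1.15 in pretreated MEFs, at 2.96 RPKM at 4 h and 0.394 RPKM at 2 h in naive MEFs, and at 0.634 RPKM at 4 h and 2.63 RPKM at 2 h in pretreated MEFs. With 1 library per group the difference between the arms was not tested. Both pretreated values rest on the 4 h library that stood apart together with that of 1 h, and its part in them was not tested.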

How the results depend on the processing

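The counts depended on the pseudocount more than on the scaling. With 0.1 RPKM in place of 1, 356 genes rose and 220 fell, in 160 late risers, 196 continuing risers, 26 early genes that fall and 194 other falls. With 5 RPKM, 119 rose and 29 fell, in classes of 52, 67, 3 and 26 genes in the same order. A minimum of 5 RPKM left 8 early genes that fall. Scaling by TMM library sizes or DESeq2 size factors, which moved the median of all genes to -0.0024 and 0.0078, gave 238 and 246 rises and 73 and 71 falls, and no other class count moved by over 1.5 times. Under TMM 1 feedback inhibitor fell in place of 2, and Socs3 was the one lost. With the pseudocount of 0.1, 2 members of the NF-kB list, 2 of the DNA replication list, 1 of the cholesterol list and 1 of the neural markers fell, and 2 of the checkpoint list and 1 of the endothelial markers rose. Of 85 named genes past 2-fold, none changed sign in 340 alternative values, and 314 of these stayed past 2-fold.

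The test over both arms gave between 0 and 0 genes higher and lower when the naive 2 h, naive 4 h, pretreated 2 h or pretreated 4 h library was left out. It also gave 0 and 0 without the 0 h libraries (2311 genes at an unadjusted p under 0.05), with only the 2 and 4 h libraries (1878) and, in an alternative added after the data were seen, without the pretreated 1 and 4 h libraries (1462). DESeq2 called 574 higher and 553 lower, and limma 54 and 107. The cause of these differences was not tested, and the fits that leave libraries out also have fewer libraries. No paired analysis was possible because the labels give 1 library per arm and time and no replicate numbers, and the arm is a term of the test. The naive 2 h library, the shallower of the pair, limits the precision of low genes: Ms4a4d rested on 21436 counts at 4 h and 477 at 2 h.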

Other observations

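Among genes in none of the lists, chosen here after their values were seen, 3 genes of MHC class II presentation were low before IFN-β and at least 2-fold higher at 4 h than at 2 h in naive MEFs. H2-Aa, a class II alpha chain, had 0, 0.05, 0.035, 1.98 and 2.98 RPKM at 0, 1, 2, 4 and 6 h. Cd74, the invariant chain, had 1.90, 3.42, 2.50, 11.5 and 14.3 RPKM. The log2 difference of 4 h minus 2 h was 1.496 for the beta chain H2-Ab1, 1.53 for H2-Aa and 1.84 for Cd74 in naive MEFs, and in pretreated MEFs it was 0.71 for H2-Ab1, 0.58 for H2-Aa and 0.80 for Cd74. H2-Ab1 stood at 1.995 RPKM at 4 h and 0.062 RPKM at 2 h in naive MEFs. The naive 2 h levels of H2-Aa and H2-Ab1 rest on 4 and 8 counts, so both differences start near the floor.

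Members of other families also passed 2-fold. The Schlafen gene Slfn2, a regulator of T cell quiescence, had 0.552, 6.71, 20.2, 88.1 and 101 RPKM over the 5 times, and Slfn5 had 0.009, 0.38, 2.72, 10.5 and 12.8 RPKM. The PHD finger gene Phf11b had 0.514, 4.14, 22.4, 121 and 189 RPKM, and Phf11d had 0.887, 9.48, 47.3, 179 and 245 RPKM. The apolipoprotein L gene Apol9b had 2.76, 13.1, 20.5, 60.8 and 65.4 RPKM, and Apol10b had 0.14, 0.252, 1.57, 7.09 and 9.66 RPKM. These paralogs may share reads.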
